A study of Mus musculus with 12 samples.

Results

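The 6 control libraries of the study were compared with each other: controls 1 to 3, deposited in the table of miR184, against controls 4 to 6, deposited in the table of miR499. They are 6 of the 12 libraries, and were chosen by their column labels alone. Genes were matched by name, and 10153 of the 48709 listed genes had a mean of at least 1 RPKM over the 6 controls and make up the set described. RPKM divides the reads of a gene by its length in kilobases and by the depth of the library, so levels of different genes can be compared per length. All 6 libraries came from bone marrow hematopoietic stem and progenitor cells (HSPC) of wild-type mice, transfected with a control miRNA and collected 2 days later, and no age, sex or strain is given. The other 6 libraries, 3 with miR184 and 3 with miR499, were used only to see whether they split in the same way. Sorted cells were the source of the RNA, per the labels' protocols, but the sort gate and the number of animals or cultures are not given, so p-values measure only the spread among these libraries and part of it may be technical.

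HSPC renew themselves in the marrow and give rise to every kind of blood cell. In culture with growth factors they divide fast and move towards the myeloid lineages, so that genes of immature cells, of dividing cells and of early granulocytes are read together from one pool. Kit, the receptor of stem cell factor, marks immature cells, and Mpo and Elane, enzymes of the first neutrophil granules, mark promyelocytes. A bulk library cannot tell fewer cells of a type from less RNA per cell, and this holds for every lineage level given here.

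The labels separate the sets in ways other than the table. The sample numbers in the descriptions ran from S7 to S9 in controls 1 to 3 and from S1 to S3 in controls 4 to 6, and a further mark stood in the descriptions of controls 4 to 6 only. No library of a set carried the mark of the other, so the set of controls and any batch behind these marks cannot be told apart. Library totals, recovered from the values, were 43413665 to 46601798 reads in controls 1 to 3 and 31990355 to 45552326 reads in controls 4 to 6. For a gene of 2000 bases, the 3 reads that a count of 0 still allows correspond to 0.0322 to 0.0469 RPKM, which covers counting error only. The share of reads in listed genes was 89.0% to 89.1% in controls 1 to 3 and 90.9% to 92.2% in controls 4 to 6.

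Both sets carried the transcriptome of proliferating myeloid progenitors. The most abundant transcripts were mt-Co3 and mt-Atp6, mitochondrially encoded subunits of cytochrome oxidase and ATP synthase, with means over the sets of 9677 and 9132 RPKM. The ferritin light chain Ftl1, which stores iron, averaged 4837 RPKM, and B2m, the light chain of MHC class I, 3222 RPKM. Mpo was the only lineage-restricted gene among the 10 most abundant genes, with a mean of 2899 RPKM. Elane averaged 2505 RPKM and the lysozyme gene Lyz2 2512 RPKM, just below. Of the 100 most abundant genes of each set, 81 were shared. A mean of at least 10 RPKM was reached by 4520 genes and of at least 100 RPKM by 722 genes.

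The label was checked against defining markers of blood cells. Cd34, a surface marker of progenitors, had 110, 110 and 112 RPKM in controls 1 to 3 and 82.4, 85.7 and 85.0 RPKM in controls 4 to 6. Flt3, the receptor of early multipotent and lymphoid progenitors, had 16.4 to 20.7 RPKM and 13.6 to 16.8 RPKM. Of the markers of long-term stem cells, Slamf1 had 0.246 to 0.321 RPKM in controls 1 to 3 and 0.214 to 0.371 RPKM in controls 4 to 6, and Mecom 0.460 to 0.575 RPKM and 0.127 to 0.216 RPKM. The stem cell factor Hlf had 2.84 to 3.39 RPKM in controls 1 to 3 and 1.28 to 1.33 RPKM in controls 4 to 6, and the angiopoietin receptor Tek 2.17 to 2.54 RPKM and 0.391 to 0.480 RPKM. Procr, a surface receptor of stem cells, had 0.856 to 1.13 RPKM and 0.659 to 1.28 RPKM. Members of the primary neutrophil granule list summed to 11245 to 11992 RPKM in controls 1 to 3 and 10689 to 12469 RPKM in controls 4 to 6. Genes of later neutrophils were unequal in level. Ltf, a protein of the secondary granules, reached 1.51 RPKM at most, while the calcium-binding protein gene S100a8 had 195 to 551 RPKM in controls 1 to 3 and 256 to 498 RPKM in controls 4 to 6. The late neutrophil list summed to 382 to 984 RPKM and 475 to 812 RPKM.

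Other lineages were present at lower levels or near 0. The 15 T and NK markers summed to 3.78 to 5.36 RPKM in controls 1 to 3 and 2.81 to 3.49 RPKM in controls 4 to 6. The T cell receptor chain Cd3e was at 0 in 3 of the 6 libraries and at no more than 0.0156 RPKM in the others. Hba-a1, the adult globin of maturing red cells, was at 0 in controls 1 and 3, reached 1.08 RPKM in control 6, and stood far below Gata1, the transcription factor of red cell and megakaryocyte precursors, at 10.2 to 11.96 RPKM in controls 1 to 3 and 7.87 to 9.74 RPKM in controls 4 to 6. These marker genes are named as the usual ones of their lineages and were chosen after their values were seen. The Y-linked genes Ddx3y, Eif2s3y and Uty had no read in any control, and Kdm5d at most 0.00242 RPKM.

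Replicates of a set were far closer to each other than to the other set. Pearson's correlation of log2(RPKM + 1) across genes was 0.991 to 0.997 within a set and 0.904 to 0.928 between sets, where genes are not independent replicates. The first principal component held 95.0% of the variance of the 6 libraries and separated the sets, and the second held 2.23%. With limma on log2(RPKM + 1) and a Benjamini-Hochberg adjusted p under 0.05, 8616 of the 10153 genes differed, which is 84.9% of the genes tested. Of these, 5612 genes (55.3%) were higher and 3004 genes (29.6%) were lower in controls 1 to 3. The values of controls 1 to 3 and 4 to 6 did not overlap in 8672 genes (85.4%). At least a 2-fold difference was seen in 2043 higher and 605 lower genes, and at least a 4-fold difference in 152 higher and 41 lower genes. The median log2 difference of all genes was 0.30, so single genes and lists below are to be read against it. Counts of called list members are to be read against the 55.3% higher and 29.6% lower of all genes. With each library scaled by the median ratio of its genes, the median was -0.05 and 8501 genes differed (83.7%), 4046 higher (39.9%) and 4455 lower (43.9%). With RPKM sums made equal it was 0.62 and 8835 genes differed (87.0%), 7029 higher (69.2%) and 1806 lower (17.8%).

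The difference followed the length of the gene. In the shortest 10% of genes, 1016 genes of 183 to 1358 bases, the median log2 difference was -0.70, with 67 genes higher and 774 lower in controls 1 to 3. In the longest 10%, 1016 genes of 8116 to 28105 bases, it was 0.71, with 829 genes higher and 69 lower. Across genes, Spearman's correlation of the difference with length was 0.51 and with GC content 0.12, given as a description. The longest 10% minus the shortest 10%, as median deviations from the mean of both sets of controls, was 0.63 to 0.77 log2 units in controls 1 to 3 and -0.76 to -0.63 in controls 4 to 6. It was 0.72 to 0.78 with miR184, and -0.54, -0.75 and 0.25 with miR499 1, 2 and 3. Thus 3 of 3 miR184 libraries lay beside controls 1 to 3 and 2 of 3 miR499 libraries beside controls 4 to 6, while miR499 3 lay between. Differences in the cells and in the making of the libraries cannot be told apart here.

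**Figure D1:**
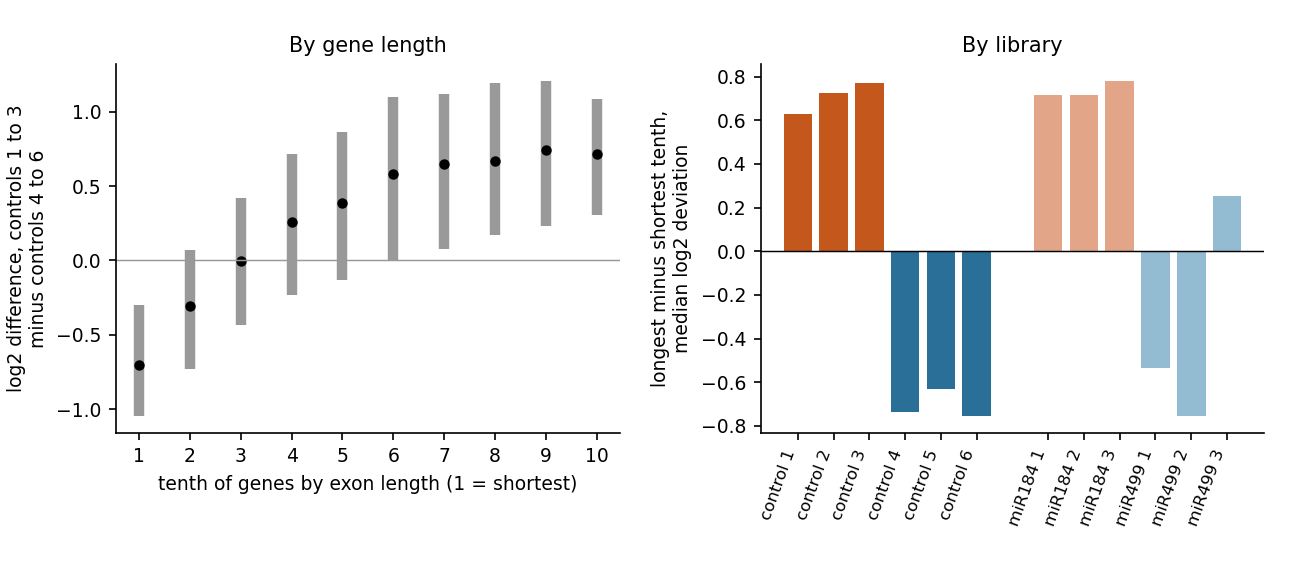
Left, log2 difference of RPKM between controls 1 to 3 and controls 4 to 6 in 10 equal groups of genes by exon length (points, medians; bars, quartiles). Right, median log2 deviation of the longest 10% minus the shortest 10% of genes in each of the 12 libraries, positive in controls 1 to 3 (0.63 to 0.77) and negative in controls 4 to 6 (-0.76 to -0.63).

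A second set of values was therefore computed with the smooth trend on length and GC content removed from each library, a step chosen after seeing the data. It left 7845 of 9874 genes with a difference (79.5%), 4026 higher (40.8%) and 3819 lower (38.7%), and a median of 0.03. Of the 8383 genes called before that have such a value, 5878 were called again in the same direction and 858 in the opposite one. For the genes and lists the results turn on, this value is given beside the first as the trend-removed value.

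The largest excess in controls 1 to 3 was that of Ap2a1, a subunit of the clathrin adaptor AP-2. It had 14.4, 15.9 and 14.1 RPKM in controls 1 to 3 and 0.764, 0.827 and 0.698 RPKM in controls 4 to 6, a log2 difference of 3.16 ± 0.07 (SE, adjusted p = 1.5e-08, limma), with a trend-removed value of 2.14. Ddb1, the adaptor of a ubiquitin ligase that recognises damaged DNA, had 91.1, 100.4 and 97.7 RPKM against 10.7, 12.3 and 11.2 RPKM, a difference of 2.97. The actin crosslinker Flna stood at 83.5 ± 2.98 RPKM in controls 1 to 3 and 12.2 ± 0.995 RPKM in controls 4 to 6 (SD, n = 3 each). No library of one set came near the other set in any of these genes. The calcium pump Atp2a3 (log2 difference 2.66), the semaphorin Sema4d (2.96), the endosomal GTPase Rab5b (2.68), Leng8 (2.98), Sbno2 (2.77) and the antiviral oligoadenylate synthase Oas3 (3.13) completed the group with Gm28036. Gm28036 had 6.57 ± 0.155 RPKM in controls 1 to 3 and 0.0266 ± 0.0232 RPKM in controls 4 to 6, on 5187 against 21 reads. All of its exon bases lie on exons of other genes of the same strand, of which Cpne1 shares most, so its reads cannot be told from theirs. Cpne1 itself had 13.9 to 14.1 RPKM and 6.09 to 6.79 RPKM. Trend-removed values of these 10 genes ran from 1.53 in Atp2a3 to 2.42 in Rab5b.

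In the other direction, Exosc6, a core subunit of the RNA exosome, had no read in controls 1, 2 and 3, while controls 4 to 6 had 34.1, 33.2 and 32.0 RPKM. Taken against a limit of 3 reads over the set, it was at least 1984-fold lower in controls 1 to 3. Exosc6 is a single exon of 1326 bases at chr8:111056339-111057664, plus strand, in GENCODE M21 on GRCm38, and lies entirely within exons of Aars, the alanyl-tRNA synthetase gene, on the same strand. Aars had 15.2, 15.2 and 16.0 RPKM in controls 1 to 3 and 5.36, 5.78 and 5.14 RPKM in controls 4 to 6, so the entries that share this stretch differed in opposite directions. Gm44709 had no read either in controls 1 to 3, was at least 348-fold lower there, and averaged 17.2 ± 0.888 RPKM in controls 4 to 6. It is annotated as antisense, with 96.7% of its exon bases opposite exons of the transcription elongation factor gene Supt5. Supt5 had 31.7 to 32.8 RPKM in controls 1 to 3 and 9.08 to 9.82 RPKM in controls 4 to 6. Gm17134, which lies wholly opposite the splicing regulator Ptbp1, had 0.285 ± 0.147 RPKM in controls 1 to 3 and 9.85 ± 2.73 RPKM in controls 4 to 6, whereas Ptbp1 had 73.1 to 81.8 RPKM and 16.3 to 17.0 RPKM. Whether the counting used strand is not given in the sources used here. Sense and antisense reads therefore cannot be told apart at these loci.

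Tsix, the antisense RNA of Xist, had 0.978, 1.21 and 1.05 RPKM in controls 1 to 3 and 4.37, 4.30 and 5.09 RPKM in controls 4 to 6 (difference -1.42, trend-removed -1.94). Xist, the RNA that silences an X chromosome, had 10.6 to 11.7 RPKM and 6.58 to 8.28 RPKM (difference 0.55). Its trend-removed value was -0.03, so this excess was not seen once the trend was taken out. Tsix was thus lower and Xist, as deposited, higher in controls 1 to 3, and neither set overlapped the other. Of the exon bases of Tsix, 32.6% lie opposite exons of other genes, of which Xist shares most. As the use of strand in counting is not given, reads of Tsix and Xist cannot be told apart in the shared stretch.

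The remaining genes with the largest deficits in controls 1 to 3 had no such neighbour over most of their exons. Alyref, an mRNA export adaptor, had 5.19, 4.28 and 4.52 RPKM in controls 1 to 3 and 102.9, 104.3 and 101.5 RPKM in controls 4 to 6, a log2 difference of -4.20 ± 0.06 (adjusted p = 3.2e-09, limma). Its trend-removed value was -4.57. Srsf9, a splicing factor, had 12.8, 10.01 and 9.64 RPKM against 127, 126 and 131 RPKM. Cebpb, the transcription factor of stress-induced granulocyte production, had 1.04, 1.05 and 0.934 RPKM in controls 1 to 3 and 16.1, 24.8 and 24.1 RPKM in controls 4 to 6, a difference of -3.47 ± 0.14. The tRNA modification enzyme Yrdc (-3.53), Nsmce4a of the SMC5/6 complex (-3.26), the deubiquitinase Otulin (-3.23) and Tmem243 (-3.13) were the others. Of the 20 genes with the largest differences in both directions, all 20 kept their sign with the trend removed and under both scalings. They were picked for the size of their differences, which exceeds the shift that either scaling brings. Their sign could therefore not change by scaling, and this is no test of them.

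**Figure D2:**
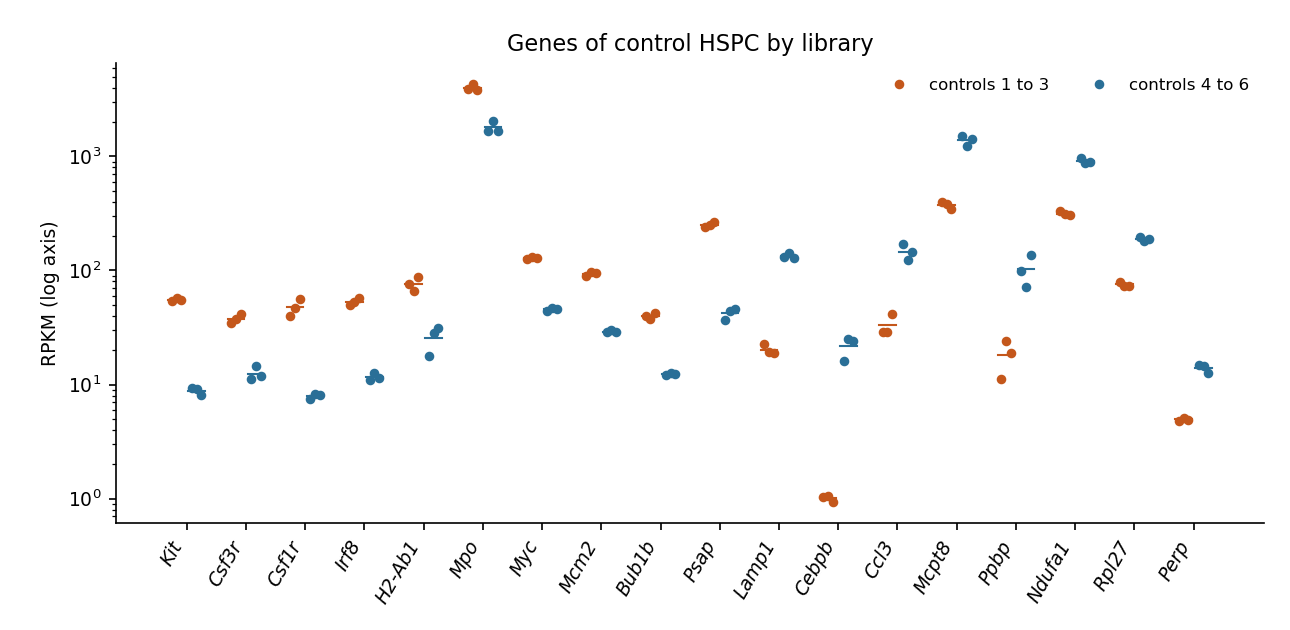
RPKM of 18 genes in each control library (points, log axis; lines, means of 3), with controls 1 to 3 left of controls 4 to 6 for each gene. The sets do not overlap in any of the 18 genes, with Kit at 53.8 to 57.1 RPKM in controls 1 to 3 and 8.17 to 9.24 RPKM in controls 4 to 6.

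Receptors of growth factors and interferons, taken as a list, were higher in controls 1 to 3. The most abundant members were the interferon receptors Ifngr1 (difference 0.55) and Ifnar2 (0.20, with a trend-removed value of -0.18). Of 21 listed receptors, 20 had a level that could be tested, of which 19 were higher in controls 1 to 3 and none lower. Their median log2 difference was 1.15, against 0.30 over all genes. Kit had 53.8, 57.1 and 55.1 RPKM in controls 1 to 3 and 9.24, 9.15 and 8.17 RPKM in controls 4 to 6, a log2 difference of 2.52 ± 0.06 (adjusted p = 1.5e-08, limma). Csf1r, the receptor of the macrophage growth factor, had 39.9, 47.2 and 55.9 RPKM against 7.45, 8.29 and 8.16 RPKM, a difference of 2.43. The granulocyte receptor Csf3r had 34.9, 37.3 and 41.2 RPKM against 11.1, 14.5 and 11.8 RPKM, a difference of 1.53, and the sets did not overlap. Il6st, the shared signalling chain of the interleukin 6 family, was higher as well (1.95). With the trend removed 15 receptors were higher and 4 lower, with a median of 0.63, and the values of Kit, Csf1r and Csf3r were 1.86, 1.45 and 0.84. The receptors had a median length of 4662 bases, against 3673 bases over all genes.

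Stem cell and multipotent progenitor genes did not move as a group. Of 29 listed genes, 22 were tested, and 13 were higher and 5 lower in controls 1 to 3, with a median of 0.38, near that of all genes, and of -0.04 under median-ratio scaling. Cd48, a marker lost on the most immature stem cells, was the most abundant member after Ifitm3 and had 227, 207 and 230 RPKM in controls 1 to 3 and 336, 305 and 325 RPKM in controls 4 to 6. The core factor Lmo2 had 148 to 162 RPKM and 156 to 166 RPKM (adjusted p = 0.42, limma). Myb and Spi1, which drive progenitor growth and myeloid fate, had 87.5 to 93.2 and 62.7 to 68.8 RPKM in controls 1 to 3 and 59.8 to 66.8 and 42.9 to 49.6 RPKM in controls 4 to 6. The trend-removed values of Cd48, Myb and Spi1 were 0.05, 0.12 and 0.08, and none was called (adjusted p = 0.48, 0.051 and 0.28, limma). Irf8, the transcription factor of monocyte and dendritic cell fate, differed far more, with 49.98, 53.3 and 56.8 RPKM against 10.9, 12.7 and 11.4 RPKM, a difference of 2.11 and a trend-removed value of 1.19. Irf8 and Cebpb, both transcription factors of the myeloid branches, therefore differed in opposite directions. The monocyte and macrophage list, which holds Irf8, Csf1r and Gpnmb, did not follow them. Of its 17 tested genes 7 were higher and 3 lower, where 55.3% of all genes were higher and 29.6% lower. Its median was 0.12, and -0.28 under median-ratio scaling. Its abundant members Lgals3 (-0.26) and Ctss (0.12) had sets that overlapped.

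Genes of dendritic cells and of MHC class II, which present peptides to T cells, were mostly higher in controls 1 to 3. Of 16 listed genes, 10 had enough reads to be tested, and 8 were higher and 1 lower (median log2 difference 1.58). Over all genes tested 55.3% were higher and 29.6% lower. The lower gene was H2-DMa, the most abundant member after Cd74, with 83.8 ± 4.18 RPKM in controls 1 to 3 and 106.7 ± 4.62 RPKM in controls 4 to 6 (difference -0.34). H2-Ab1, a chain of MHC class II, had 75.9, 65.4 and 87.5 RPKM in controls 1 to 3 and 17.7, 28.5 and 31.2 RPKM in controls 4 to 6, a difference of 1.56 ± 0.19. Cd74, the invariant chain that guides class II to endosomes, had 149, 140 and 181 RPKM against 33.1, 64.2 and 67.7 RPKM. Siglech, a surface lectin of plasmacytoid dendritic cells, had 14.04, 12.5 and 14.1 RPKM against 1.94, 2.20 and 3.36 RPKM. The median length in the list was 1639 bases, and with the trend removed the count was again 8 higher and 1 lower, with a median of 1.85. The lower gene was then Flt3 (-0.53), and H2-DMa was at -0.12. The early lymphoid genes Dntt (1.56) and Il7r (1.33), for the nucleotide-adding enzyme of antigen receptor joining and the interleukin 7 receptor, were higher as well, with Dntt at 8.04 ± 2.26 RPKM in controls 1 to 3 and 2.002 ± 0.330 RPKM in controls 4 to 6. The B cell list held only 4 tested genes of 14, 2 higher and 2 lower.

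Genes of mast cells and basophils were lower in controls 1 to 3. Of 15 listed genes, 11 were tested, and 2 were higher and 8 lower, with a median of -1.05, and with the trend removed none was higher and 7 were lower, with a median of -0.62. Mcpt8, a protease of basophils, had 394, 378 and 343 RPKM in controls 1 to 3 and 1521, 1233 and 1414 RPKM in controls 4 to 6, a difference of -1.90 ± 0.09 (adjusted p = 1.3e-07, limma). The basophil protease Prss34 (-1.11) and the mast cell carboxypeptidase Cpa3 (-1.11) were lower as well, with trend-removed values of -0.62 and -0.65. Among eosinophil genes, Prg3, a granule protein, had 6.56, 11.1 and 1.53 RPKM against 31.7, 23.8 and 17.2 RPKM (difference -1.997), while the surface lectin Siglecf had 4.16 to 4.89 RPKM against 1.31 to 2.31 RPKM (difference 0.99). Only 4 of the 10 eosinophil genes were tested, and a granule gene and a surface gene of this lineage differed in opposite directions.

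Genes of the primary neutrophil granules differed in both directions. Of 14 listed primary granule genes 13 were tested, and 2 were higher and 7 lower, with a median of -0.27 that became 0.13 with equal RPKM sums and 0.11 with the trend removed. Mpo had 3869, 4312 and 3830 RPKM in controls 1 to 3 and 1664, 2051 and 1665 RPKM in controls 4 to 6, a difference of 1.16 ± 0.10 and a trend-removed value of 0.44. Elane, in the same granules, had 2635, 2491 and 2157 RPKM against 2481, 2911 and 2353 RPKM, and the sets overlapped (adjusted p = 0.47, limma). The Elane difference was 0.53 with the trend removed (adjusted p = 0.00058, limma) and -0.52 under median-ratio scaling (adjusted p = 0.0024), so its direction depended on the treatment of the data. The protease inhibitor Cst7 was at 218 ± 0.907 RPKM in controls 1 to 3 and 366 ± 24.7 RPKM in controls 4 to 6, and its trend-removed value was -0.07. Padi4, an enzyme of mature neutrophils that citrullinates histones, was low in both sets with 6.03 to 6.52 RPKM and 0.531 to 0.847 RPKM (difference 2.08).

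Members of the megakaryocyte list differed in both directions. Pf4 and Ppbp, chemokines of platelet granules, had 495 ± 36.8 and 18.0 ± 6.49 RPKM in controls 1 to 3 and 1224 ± 330 and 103 ± 33.0 RPKM in controls 4 to 6 (SD, n = 3 each). Their differences were -1.27 and -2.47. Itga2b, the integrin chain of the fibrinogen receptor, had 45.4, 41.4 and 46.9 RPKM in controls 1 to 3 and 12.03, 12.3 and 14.9 RPKM in controls 4 to 6, a difference of 1.70. All 3 kept their direction with the trend removed, at -0.52, -1.84 and 0.53. The surface tetraspanin Cd9 had 123, 115 and 110 RPKM against 182, 157 and 204 RPKM, a difference of -0.63 and a trend-removed value of -0.36, so surface genes differed in both directions. Over the megakaryocyte list 9 of 17 tested genes were higher and 6 lower, with a median of 0.27 that turned to -0.15 under median-ratio scaling. Of 9 tested red cell precursor genes (of 18 listed), 7 were higher and 1 lower, with a median of 0.68. Over all genes tested 55.3% were higher and 29.6% lower. The transferrin receptor Tfrc (0.78) and Hemgn (0.68) were higher, while Car2, the most abundant member, was lower (-0.36, trend-removed -0.32). The list summed to 195 to 202 RPKM and 191 to 218 RPKM, so its sums overlapped. Of the endothelial and stromal genes 2 of 14 were tested, Pecam1, an adhesion molecule that leukocytes and platelets also carry, with 17.3, 19.4 and 18.3 RPKM against 4.42, 5.29 and 4.63 RPKM, and Pdgfrb with 5.18 to 6.19 RPKM against 1.19 to 1.40 RPKM.

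**Figure D3:**
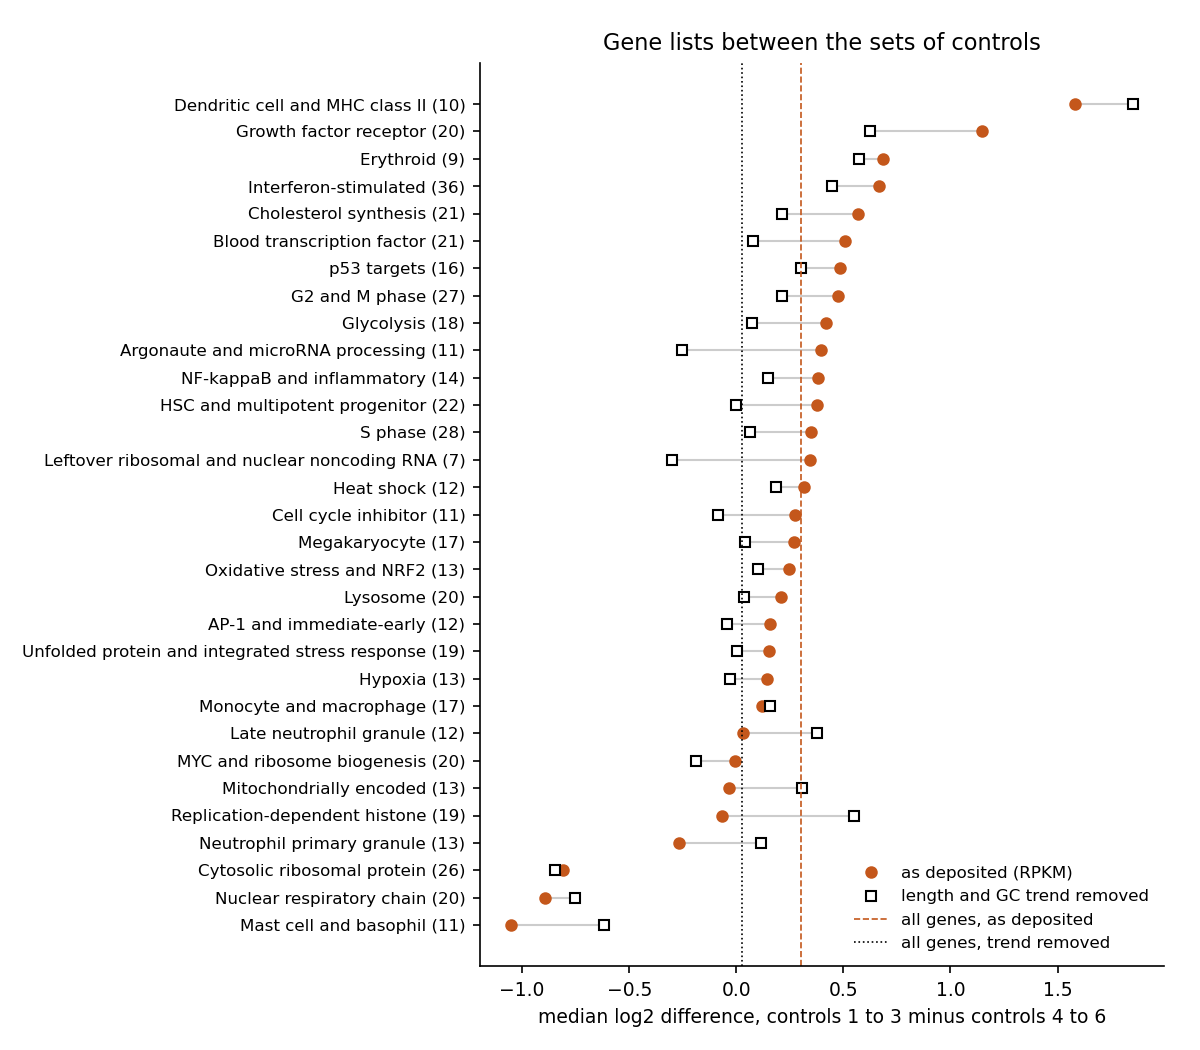
Median log2 difference, controls 1 to 3 minus controls 4 to 6, of the 31 gene lists with at least 5 tested members (number in brackets), as deposited (filled circles) and with the length and GC trend removed (open squares). Vertical lines give the medians of all genes, 0.30 and 0.03; dendritic cell and MHC class II genes lie highest, and mast cell and basophil, respiratory chain and ribosomal protein genes lie lowest.

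The 4 treatments of the data were as deposited, median-ratio scaling, equal RPKM sums and the trend removed. Across the 31 lists, the median kept 1 sign, taken against 0, under all 4 in 12 lists, of which 9 were higher and 3 lower. The median of all genes itself ran from -0.05 to 0.62 over these treatments, so a median above 0 need not be an excess. Among the 9 were the p53 and NF-kappaB lists, which are not read as results here. The G2 and M phase list, also among them, was at 0.05 under median-ratio scaling. The 3 lower lists were the mast cell and basophil genes, the ribosomal proteins and the nuclear genes of the respiratory chain. In the other 19 lists the sign of the median depended on the treatment.

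Genes of the translation machinery and of the respiratory chain were lower in controls 1 to 3. Of 26 ribosomal proteins 24 were lower and none higher, with a median of -0.81, and their summed level was 10778 to 12430 RPKM in controls 1 to 3 and 18392 to 19411 RPKM in controls 4 to 6. Rpl27 had 79.8, 73.5 and 73.7 RPKM against 194, 181 and 189 RPKM, a difference of -1.30, and Rps19 had 273, 246 and 233 RPKM against 588, 554 and 607 RPKM. With the trend removed 20 were lower and 3 higher, with a median of -0.85. Near-identical pseudogenes can take reads of these genes, so their levels are uncertain. Of 20 nuclear respiratory chain genes 14 were lower and 3 higher, with a median of -0.89 and a trend-removed median of -0.75. Ndufa1, a subunit of complex I, had 330, 310 and 304 RPKM in controls 1 to 3 and 960, 876 and 888 RPKM in controls 4 to 6, and Cycs, cytochrome c, had 69.3 ± 2.04 and 169 ± 7.497 RPKM. The 13 mitochondrially encoded genes did not follow: 2 were higher and 6 lower, with a median of -0.04, and 8 were higher and 2 lower with the trend removed.

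Growth regulators lay the other way or were mixed. Myc, the transcription factor of ribosome production and growth, had 126, 130 and 129 RPKM in controls 1 to 3 and 44.4, 47.0 and 46.1 RPKM in controls 4 to 6, a difference of 1.47 ± 0.04 and a trend-removed value of 1.15. Npm1, a nucleolar chaperone, had 475, 436 and 436 RPKM against 839, 741 and 785 RPKM (difference -0.81). Cad, the enzyme that begins pyrimidine synthesis, had 16.8 to 18.6 RPKM against 4.07 to 4.62 RPKM (difference 1.79). The list of Myc and ribosome biogenesis genes thus had 8 higher and 9 lower of 20, with a median of -0.00 as deposited, and its level as a whole did not follow that of Myc.

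Division genes were at comparable summed levels in both sets. The 28 S phase genes summed to 1535 to 1616 RPKM in controls 1 to 3 and 1264 to 1327 RPKM in controls 4 to 6, and the 27 genes of G2 and M phase to 1173 to 1239 RPKM and 1117 to 1181 RPKM. Within S phase 16 were higher and 10 lower, with a median of 0.35 that turned to -0.08 under median-ratio scaling. Mcm2 and Mcm6, subunits of the replicative helicase, were higher, Mcm2 with 88.9, 96.0 and 94.7 RPKM against 28.6, 30.1 and 28.7 RPKM (difference 1.64) and Mcm6 with a difference of 1.21. Pcna, the sliding clamp of the same forks, had 142, 137 and 134 RPKM against 233, 209 and 221 RPKM (difference -0.68, trend-removed -0.56). Of the G2 and M phase genes 19 were higher and 5 lower, with a median of 0.47 that was 0.05 under median-ratio scaling. Among them the checkpoint kinase Bub1b (1.60) and the spindle motor Kif11 (1.30) were higher, the ubiquitin carrier Ube2c (-0.64) was lower, and Cdc20 had 104 to 112 RPKM against 104 to 118 RPKM, with sets that overlapped. Mki67, the usual proliferation marker, had 16.5 to 18.9 RPKM and 8.69 to 11.3 RPKM. Of the braking genes, the pocket protein Rbl2 (1.76) and Btg2 (1.02) were higher in controls 1 to 3, and Cdkn1a had 21.2, 21.8 and 26.2 RPKM against 29.5, 26.8 and 29.1 RPKM.

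Targets of p53, the damage sensor, differed in both directions: 10 of 16 were higher and 5 lower, where 55.3% of all genes were higher and 29.6% lower, and the list as a whole is not read as a result. Bbc3, which encodes the death protein PUMA, had 6.19, 5.43 and 5.72 RPKM in controls 1 to 3 and 1.54, 1.91 and 1.71 RPKM in controls 4 to 6 (difference 1.32). Bax, its effector at the mitochondria, had 70.7, 67.2 and 64.9 RPKM against 126, 124 and 110 RPKM (difference -0.82), and Perp had 4.94 ± 0.165 and 13.99 ± 1.12 RPKM (difference -1.33). Initiator and effector of the same death pathway therefore differed in opposite directions, and both kept them with the trend removed, at 1.20 and -0.64.

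The remaining stress programmes lay near the median of all genes, with members that differed strongly. The unfolded protein and integrated stress response list had 11 higher and 5 lower of 19 tested (median 0.15), heat shock genes 7 and 3 of 12 (0.31), oxidative stress genes 7 and 6 of 13 (0.25), hypoxia genes 6 and 4 of 13 (0.14) and immediate-early genes 6 and 3 of 12 (0.16). All of these medians turned negative under median-ratio scaling. Dnajb9, a chaperone of the endoplasmic reticulum, was at 15.1 ± 0.830 RPKM in controls 1 to 3 and 5.43 ± 0.627 RPKM in controls 4 to 6 (difference 1.33), and its trend-removed value, 1.66, was larger. Thioredoxin and its reductase were an opposed pair: Txn1 had 358 ± 14.5 and 719 ± 41.2 RPKM (difference -1.004), and Txnrd1 44.6 ± 1.01 and 11.6 ± 0.334 RPKM (difference 1.86). The cytosolic chaperone Hspa8 was higher (0.68) and the mitochondrial co-chaperone Hspe1 lower (-1.30). Of the genes that respond to low oxygen, Higd1a was lower (-1.26) and the demethylase Kdm3a higher (1.24). The immediate-early gene Ier2 had 45.8 to 50.6 RPKM against 32.3 to 34.2 RPKM (difference 0.53).

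Pairs of genes in the lysosome and metabolism lists diverged further. Psap, the precursor of the saposins that activate lipid breakdown in lysosomes, had 242, 249 and 267 RPKM in controls 1 to 3 and 36.9, 44.3 and 45.8 RPKM in controls 4 to 6 (difference 2.55). Lamp1, the main protein of the lysosomal membrane, had 22.4, 19.3 and 19.0 RPKM against 130, 142 and 128 RPKM (difference -2.66). The trend-removed values were 2.19 and -2.84. Lysosomal genes as a list had 12 higher and 5 lower of 20, with a median of 0.21 that turned to -0.20 under median-ratio scaling, and summed to 1474 to 1720 RPKM against 1492 to 1588 RPKM. In glycolysis 11 of 18 genes were higher and 5 lower, with a median of 0.42 that was -0.01 under median-ratio scaling. The hexokinase Hk1 had 24.4, 25.3 and 26.0 RPKM against 3.39, 4.03 and 3.47 RPKM (difference 2.51) and Pkm, the pyruvate kinase, had a difference of 1.21. Cholesterol synthesis genes were higher in 13 of 21 tested and lower in 3, with a median of 0.57, where 55.3% of all genes were higher. With the trend removed 13 were higher and 6 lower, with a median of 0.21. Hmgcs1, an early enzyme of the pathway, had 108, 113 and 118 RPKM in controls 1 to 3 and 47.1, 51.0 and 50.4 RPKM in controls 4 to 6 (difference 1.17). Among the genes that make and carry miRNAs, 7 of 11 tested were higher and 1 lower, but with the trend removed 2 were higher and 7 lower, with medians of 0.40 and -0.25. Xpo5, the exporter of miRNA precursors, kept its direction with 18.5, 19.3 and 20.5 RPKM against 3.36, 3.28 and 3.77 RPKM (difference 2.19, trend-removed 1.71).

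Entries of ribosomal RNA and histone transcripts, many of which a poly(A) selection would leave behind, were also set side by side. Whether each listed member, H2afx among them, is such a transcript was not tested. Rn18s-rs5, an entry related to 18S ribosomal RNA, had 87.5, 82.1 and 66.7 RPKM in controls 1 to 3 and 31.0, 28.8 and 26.4 RPKM in controls 4 to 6 (difference 1.42). The 21 listed replication-dependent histone genes summed to 325 to 387 RPKM and 349 to 372 RPKM, so these sums overlapped. H2afx, the most abundant member, had 152 to 168 RPKM in controls 1 to 3 and 120 to 134 RPKM in controls 4 to 6. Hist1h2ap, which is not in the list, averaged 2135 RPKM over the sets, so the sums do not cover all histone transcripts. Of 19 tested histone genes 4 were higher and 7 lower (median -0.07, and 0.14 with equal RPKM sums), while 11 were higher and 1 lower with the trend removed. Hist1h2bj was lower under both (-1.54 and -0.78). The part of library making in these values was not tested.

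Genes induced by interferon, which are switched on as an antiviral defence when cells sense foreign nucleic acid, varied inside each set as well as between them. All 36 listed genes had a level that could be tested, and 18 were higher and 2 lower in controls 1 to 3. Over all genes tested 55.3% were higher and 29.6% lower, so the list held no excess of higher genes and a smaller share of lower ones. The median log2 difference was 0.67, with a trend-removed median of 0.44. Oas3 had 15.4, 31.1 and 47.8 RPKM in controls 1, 2 and 3 and 2.51, 1.95 and 2.68 RPKM in controls 4, 5 and 6. Stat2 had 13.1, 17.1 and 25.7 RPKM against 2.26, 2.38 and 3.29 RPKM, a difference of 2.39. Ifi27l2a lay the other way, with 264, 310 and 479 RPKM against 632, 477 and 969 RPKM, and control 3 lay just above control 5 (adjusted p = 0.0090, limma, difference -0.96, trend-removed -0.13). The groups did not overlap in 13 of the 36 genes, a smaller share than the 85.4% of all genes.

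Within each set the list moved together. Averaged over the list, log2(RPKM + 1) was 3.74, 4.29 and 5.03 in controls 1, 2 and 3 and 3.70, 3.42 and 4.08 in controls 4, 5 and 6. Control 3 was the highest of its set in 36 of 36 genes and control 1 the lowest in 35, where over all genes tested these shares were 33.2% and 36.1%. Control 6 was the highest of its set in 33 genes and control 5 the lowest in 30, where over all genes the shares were 31.6% and 28.7%. The median over the list of control 3 minus control 1 was 1.24 log2 units, against -0.00 over all genes, and of control 6 minus control 5 it was 0.63, against -0.02. Ifit1, a sensor of viral RNA, had 5.72, 11.2 and 28.0 RPKM in controls 1, 2 and 3 and 12.8, 10.04 and 20.04 RPKM in controls 4, 5 and 6, and Ly6a, the stem cell antigen Sca-1, had 46.7, 59.2 and 147 RPKM and 50.8, 38.6 and 91.0 RPKM. Ly6a therefore had the same highest and lowest libraries as the interferon-stimulated genes in both sets. The NF-kappaB and inflammatory list had control 3 highest in 12 of 14 tested genes but control 6 highest in 3.

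Promoters of some interferon-stimulated genes are shown because that list moved together within each set. The genes were picked by name, and only those with a match are shown. Usp18 and Irf7 were looked up as well and gave no window with a match. Interferon responses act through an element of 2 GAAA repeats, and the letters GAAANNGAAA were searched on both strands in RefSeq windows of 300 bases, 250 before to 50 after the start, on GRCm38.p6. A window was found for 26 of the 36 genes and the letters in 17 of these, a share of 65.4%, against 3.99% of the 27025 genes with a window. In the stretches of 30 bases below, read on the gene's strand, capitals mark the first match, which reads TTTCNNTTTC where it lies on the other strand. They lie at chr5:120777715-120777744 (minus strand) for Oas3, chr10:128270266-128270295 (plus) for Stat2, chr8:71537583-71537612 (minus) for Bst2, chr19:34640775-34640804 (plus) for Ifit1, chr4:156200877-156200906 (minus) for Isg15 and chr12:26456553-26456582 (minus) for Rsad2.
Oas3: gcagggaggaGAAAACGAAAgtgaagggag
Stat2: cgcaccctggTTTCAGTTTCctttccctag
Bst2: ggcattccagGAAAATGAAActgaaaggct
Ifit1: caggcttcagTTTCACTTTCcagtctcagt
Isg15: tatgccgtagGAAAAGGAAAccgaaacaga
Rsad2: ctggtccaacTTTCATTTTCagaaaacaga
The matches ended 66 to 213 bases before the annotated start. Bst2, an antiviral membrane tether, carried the letters and had 160, 202 and 269 RPKM in controls 1, 2 and 3 and 252, 172 and 246 RPKM in controls 4, 5 and 6, so genes with a match differed between the sets (Oas3, Stat2) or overlapped (Bst2, Ifit1). A match is a description of the letters and not of a bound site.

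Single inflammatory genes lay in both directions. Ccl3 and Ccl4, chemokines released by basophils and macrophages, were lower in controls 1 to 3. Ccl3 had 29.1, 29.02 and 41.7 RPKM against 170, 122 and 146 RPKM (difference -2.11), and Ccl4 13.7, 12.5 and 34.7 RPKM against 91.0, 75.6 and 105.0 RPKM (difference -2.24). Nfkbia, the inhibitor that NF-kappaB induces, was lower too (-0.78), whereas Nfkb2, a subunit of NF-kappaB, was higher with 8.62, 7.88 and 11.5 RPKM against 1.56, 1.66 and 1.44 RPKM (difference 2.001). Of the 14 tested genes 7 were higher and 4 lower, where 55.3% of all genes were higher and 29.6% lower. These counts lie near the shares of all genes and are not read as a result. Control 3 was the highest of its set for Ccl3, Ccl4, Nfkbia and Nfkb2 alike.

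**Figure D4:**
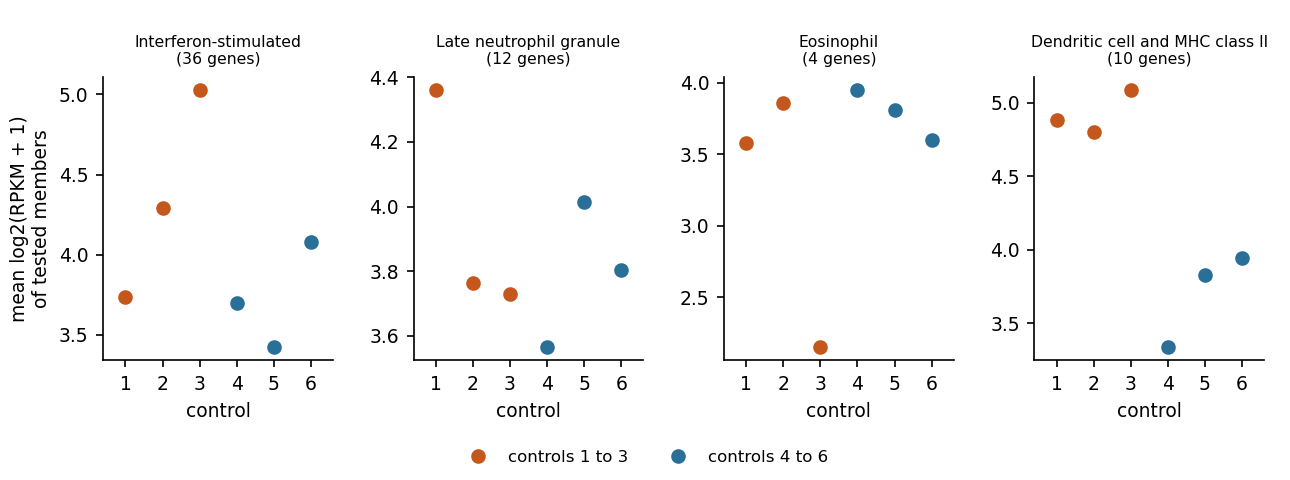
Mean log2(RPKM + 1) of the tested members of 4 lists in each control library (points; controls 1 to 3 left of controls 4 to 6; the vertical axes differ and do not start at 0). Interferon-stimulated genes are highest in controls 3 and 6 of their sets (5.03 and 4.08), late neutrophil genes in control 1 (4.36), eosinophil genes lowest in control 3 (2.15), and dendritic cell and MHC class II genes lie higher in all of controls 1 to 3.

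Apart from these programmes replicates of a set were alike. Among genes of at least 5 RPKM the median SD of log2(RPKM + 1) was 0.068 in controls 1 to 3 (6908 genes) and 0.066 in controls 4 to 6 (5644 genes), and 73 and 25 genes had an SD of 0.5 or more. The genes with the largest spread included granule genes of single lineages. The mast cell protease Tpsb2 had 15.3 RPKM in control 1 and no read in controls 2 and 3, and 4.26, 8.20 and 0 RPKM in controls 4 to 6. Cma1, another mast cell protease, had 71.1, 5.05 and 4.83 RPKM in controls 1, 2 and 3 and 110, 93.3 and 35.0 RPKM in controls 4, 5 and 6. Control 1 was the highest of its set for both genes. Late neutrophil genes summed to 984 RPKM in control 1, against 382 and 489 RPKM in controls 2 and 3, with S100a8 at 551, 195 and 275 RPKM. Eosinophil genes summed to 28.0 RPKM in control 3, against 128 and 180 RPKM in controls 1 and 2, and Prg2, their major basic protein, had 110, 157 and 20.6 RPKM in controls 1, 2 and 3 and 416, 310 and 200 RPKM in controls 4, 5 and 6. Gpnmb, a glycoprotein of macrophages, had 20.6, 28.8 and 23.0 RPKM in controls 1 to 3 and 2.81, 13.4 and 8.19 RPKM in controls 4 to 6. Pagr1a had 10.3, 4.96 and 0.129 RPKM in controls 1 to 3 and Hist1h2ad 2.94, 6.83 and 12.4 RPKM in controls 4 to 6.

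The split of the controls was also seen in the transfected libraries of the same tables, which share no library with them. Between the miR184 and the miR499 libraries 3635 of 10293 genes differed (35.3%), and without miR499 3 the number was 7158 (69.5%). Leaving out any other single library left 22 to 69 genes. Of 8554 control-called genes also tested there, 8071 (94.4%) had the same sign, and without miR499 3 8136 did and 6579 were also called, against 34 called in the opposite direction. Kit had 53.1, 51.4 and 46.9 RPKM with miR184 and 14.1, 10.7 and 34.3 RPKM with miR499. Exosc6 had 0, 1.53 and 0 RPKM with miR184 and 28.8, 29.1 and 21.8 RPKM with miR499, and Alyref 4.60, 4.43 and 4.91 RPKM and 91.9, 76.3 and 82.1 RPKM. The library miR499 3 thus lay with its own table for Exosc6 and Alyref and between the tables for Kit. For Ap2a1 it lay with the other table: 15.5, 16.3 and 16.5 RPKM with miR184 and 1.08, 0.735 and 14.7 RPKM with miR499. These libraries differ in miRNA as well as in table, and these cannot be told apart in them.

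**Figure D5:**
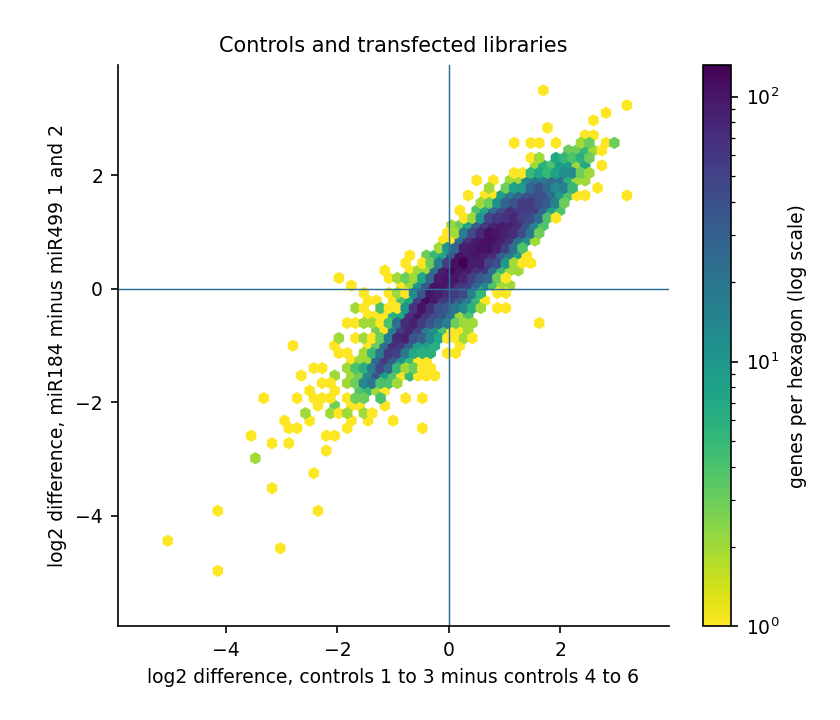
Log2 difference of each of 10054 genes between controls 1 to 3 and controls 4 to 6 (horizontal) and between the miR184 libraries and miR499 1 and 2 (vertical), coloured by the number of genes in each hexagon on a log scale. Genes lie along a rising diagonal, with 8136 of the 8554 control-called genes on the same side of 0 in both.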

How the data were processed

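The values are RPKM, per the file headers, which the authors obtained by dividing reads by gene length and library total. The submitters' processing notes name mm10 as the build. For aligner, annotation and strand, the sources used here give nothing. Whole reads came out of 100% of the values of the 21134 genes above 0, within 0.01 reads, and gave library totals and lengths (14856 lengths equal GENCODE M21). Genes were matched by name between the tables; 0 columns were left unused.

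Controls 1 to 3 were compared with controls 4 to 6 with limma 3.58.1 (R 4.3.3) with an intensity trend on log2(RPKM + 1), for genes with a mean of at least 1 RPKM, two-sided, at a Benjamini-Hochberg adjusted p under 0.05. Differences are on that scale, which understates changes of low genes. An exact permutation test of 3 against 3 cannot go below 0.1. A count model fixed for the case of counts was replaced by this test. Between replicates, chi-square divided by its degrees of freedom was 9.41 to 27.6, so each library counted as 1 sample. The test was checked on simulated data. Named genes are the 10 higher and 10 lower with the largest differences at 5 RPKM or more without overlap, the 10 most abundant, the 3 most abundant and 2 smallest-p members of each of 36 lists, sex-linked genes and the 3 most variable of each set; others are named as added. The members and lists were chosen with earlier results of these data known. The trend on length and GC content (natural splines of 4 degrees of freedom) was removed for the 97.3% of genes with a GC value. Alternatives were other scalings, filters and pseudocounts, limma voom on recovered reads, all 12 libraries, a replicate block and each library left out. The rest ran in Python (3.11.15), with pandas 2.3.3, numpy 2.4.6 and, for figures, matplotlib 3.10.9. Some genes that the rule names are not reported here.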

Additional observations from a re-analysis of the deposited data

How the results depend on the processing

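The count of 8616 differing genes was 5628 with a minimum of 5 RPKM (3175 of them higher), 5158 among the 6092 genes with no exon overlap (3373 higher and 1785 lower), and 7845 with the length and GC trend removed. With RPKM sums made equal, 1806 genes were lower. Leaving out 1 control at a time gave 8329 to 8563 genes, of which 5409 to 5531 were higher and 2879 to 3032 lower, 12 to 15 lists with a median above that of all genes and 10068 to 10215 genes above the level minimum. In the transfected libraries, leaving out 1 library gave 22 to 7158 genes, the highest without miR499 3, and 5582 without miR499 3 and with the trend removed. Of 31 lists, 15 had a median above that of all genes, and 23 did so with no filter on level. The replicate block, by the number in the descriptions, gave 8030 genes (5310 higher, 2720 lower); the same-numbered pairs had correlations of deviations of 0.11 and -0.20, so the numbers do not pair the libraries. A check of 91 of the named genes counted 85 as keeping their direction and call in all 16 alternatives. It does not show every change among the genes named here. With the trend removed, Ifnar2 went from 0.20 to -0.18, Flt3 from 0.32 to -0.53 and Cd48 from -0.54 to 0.05. Cst7 and Ifi27l2a lost their call with the trend removed. With equal RPKM sums, H2-DMa, Car2 and Cdkn1a turned positive, at 0.04, 0.03 and 0.08. Cd34 turned to -0.04 under median-ratio scaling. Xist reversed, to -0.029, with the trend removed. Elane, which did not differ as deposited, reversed to 0.53 with the trend removed and to 0.30 with equal RPKM sums, and ran from -0.15 to 0.0018 without 1 control at a time. Lmo2 reversed to 0.34 with equal RPKM sums and to 0.014 with the replicate block. Median-ratio scaling gave -0.52 for Elane and -0.48 for Lmo2, both past the threshold. The smaller counts with a stricter minimum or no overlap come from fewer genes tested; other causes were not tested. A gene without reads may be expressed below 3 reads.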
